A study of Mus musculus with 2 samples.

Results

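Sele, Selp, Icam1, Icam2 and Vcam1 encode the proteins by which endothelium catches and holds leukocytes. Their transcripts were read in single lung endothelial cells (ECs) of mice 6 h after B16-F10 melanoma cells entered the circulation, and in cells of control mice. They were picked by symbol and are 5 of the 32285 gene IDs in the count matrices. The differences of these libraries were known when the genes were picked, so the ratios below are a description and no test was made of them.

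Both groups were wild-type C57BL/6 mice injected through the tail vein, with PBS alone in the control group and with 400000 B16-F10 cells in 100 microlitres of PBS in the other. B16-F10 cells come from a melanoma of mouse skin and had been loaded with a green tracker dye. Lungs of 2 mice per treatment were pooled by the labels (the methods of the study give another number), cells positive for PECAM1 and negative for PTPRC were sorted, and dyed melanoma cells were collected as well from the injected lungs. Each group is 1 library prepared by 10x Genomics 3′ chemistry, so there was no replicate error and no p-value. Every interval given is an exact 95% counting interval of that library and does not cover the spread between mice.

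Leukocytes leave the blood in steps. Selectins catch passing cells by binding sugars on their surface proteins, and members of the immunoglobulin superfamily then hold them through integrins. E-selectin, the product of Sele, is made on demand when endothelium is exposed to cytokines, whereas P-selectin, the product of Selp, is also stored in Weibel-Palade bodies and in platelets. ICAM-1 and ICAM-2 are ligands of the integrin LFA-1, the former inducible and the latter held at a steady level by resting endothelium, and VCAM-1 is the ligand of the integrin VLA-4. Textbook accounts place rolling in postcapillary venules of most organs, while in the lung leukocytes also lodge in the capillary bed.

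The selectin genes are neighbours. Sele lies at GRCm38 chr1:164048234-164057677 on the plus strand, and Selp begins 57586 bases beyond its end, at chr1:164115264-164150026 on the same strand. Icam1 occupies chr9:21015985-21028817 on the plus strand, Icam2 chr11:106377656-106388075 on the minus strand, and Vcam1 chr3:116109949-116129688 on the minus strand. All 5 are protein-coding in the GENCODE M21 annotation. RefSeq promoter sequence (GRCm38.p6) was matched for Sele, Selp and Icam1 and not for Icam2 and Vcam1. The 200 bases before the start site are shown for these 3 genes because a promoter was matched for them. All 3 stood higher in the B16-F10 library, as did Vcam1. Capitals mark matches to the letters GGNNNTTCC (a loose, kappa-B-like form of the NF-kB site), TTCNNNGAA (the STAT palindrome) or TGANTCA (the AP-1 site), searched on both strands.
Sele, chr1:164048034-164048233, plus strand: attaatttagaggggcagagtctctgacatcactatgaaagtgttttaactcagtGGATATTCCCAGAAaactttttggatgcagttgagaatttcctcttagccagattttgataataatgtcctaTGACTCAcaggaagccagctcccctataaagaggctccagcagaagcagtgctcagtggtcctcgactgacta
Selp, chr1:164115064-164115263, plus strand: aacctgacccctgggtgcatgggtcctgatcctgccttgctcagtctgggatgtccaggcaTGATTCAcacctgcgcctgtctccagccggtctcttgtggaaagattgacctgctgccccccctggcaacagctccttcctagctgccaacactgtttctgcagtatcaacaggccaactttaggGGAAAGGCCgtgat
Icam1, chr9:21015740-21015939, plus strand: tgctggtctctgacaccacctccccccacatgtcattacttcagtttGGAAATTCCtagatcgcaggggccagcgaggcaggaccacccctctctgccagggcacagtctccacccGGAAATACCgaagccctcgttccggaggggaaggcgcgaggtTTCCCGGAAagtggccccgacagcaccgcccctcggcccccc

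In the Sele promoter the kappa-B-like letters stood at -145 to -137 and overlapped the STAT letters at -140 to -132, and the AP-1 letters stood at -73 to -67, counted from the RefSeq start site. Selp carried the AP-1 letters at -139 to -133 and the kappa-B-like letters on the minus strand at -14 to -6. Icam1 carried the kappa-B-like letters at -153 to -145 and at -84 to -76, and the STAT letters at -42 to -34, counted from a RefSeq start that lies upstream of the start of the GENCODE gene given above. Among 32851 RefSeq promoters searched over 250 bases, 15.7% held GGNNNTTCC, 7.02% held TTCNNNGAA and 6.75% held TGANTCA. A match is a string of letters and not a measured binding site.

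In total 85794655 UMIs were counted in the control and 104978816 in the B16-F10 library. Within 1000 to 5000 genes and under 20% mitochondrial UMIs, and without called doublets, 7830 and 7767 cells remained, of which 6848 and 6072 were ECs with medians of 7663 and 9149 UMIs. The depth of the B16-F10 cells was thus greater, and shares of cells are given after each cell was thinned to 2000 UMIs. Classes were named from marker genes as general capillary (gCap-like, 4618 control and 4252 B16-F10 cells), aerocyte capillary (aCap-like, 1446 and 966), artery-like (242 and 184), vein-like (304 and 283) and lymphatic (LEC-like, 58 and 51). The 8 of 8 endothelial markers had UMIs in each of these classes. A cluster led by Csf2 and Sox9 met the endothelial rule but no vessel class, and held 8 control and 306 B16-F10 cells. Another led by Fabp4 and Rbp7 held 172 and 30. Clusters that also carried markers of mural cells, platelets, epithelium or red cells made up 12.2% and 19.3% of cells and were kept out of the ECs. The libraries shared 18 cell barcodes.

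Over all ECs, Sele UMIs numbered 73 with PBS and 1099 with B16-F10 cells, Selp 421 and 2089, and Vcam1 2396 and 5380. Icam1, with 10594 and 18438 UMIs, was moderately higher, and Icam2, with 43082 and 43544, was nearly level once scaled to library size. Per 1000000 UMIs of the ECs (CPM), Sele stood at 1.33 (1.04 to 1.67) and 19.1 (18.0 to 20.3). The log2 ratios of B16-F10 over control were 3.85 for Sele (3.51 to 4.21), 2.25 for Selp (2.09 to 2.40), 1.10 for Vcam1 (1.03 to 1.17), 0.73 for Icam1 (0.70 to 0.77) and -0.05 for Icam2 (-0.07 to -0.03). The intervals of Sele, Selp, Vcam1 and Icam1 lay above 0 and that of Icam2 below it. Beyond their intervals, 29.5% of 14320 genes with at least 50 UMIs were higher and 38.7% lower. Of the 5 genes, 3 were at least 2-fold higher and none at least 2-fold lower, where 3.37% of 14320 genes with at least 50 UMIs were at least 2-fold higher and 3.52% lower. The median over those genes was -0.06. Nothing is read from these counts of genes, since the genes were picked on this contrast. The plot of log2 ratios by class sets these values side by side.

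**Figure D1:**
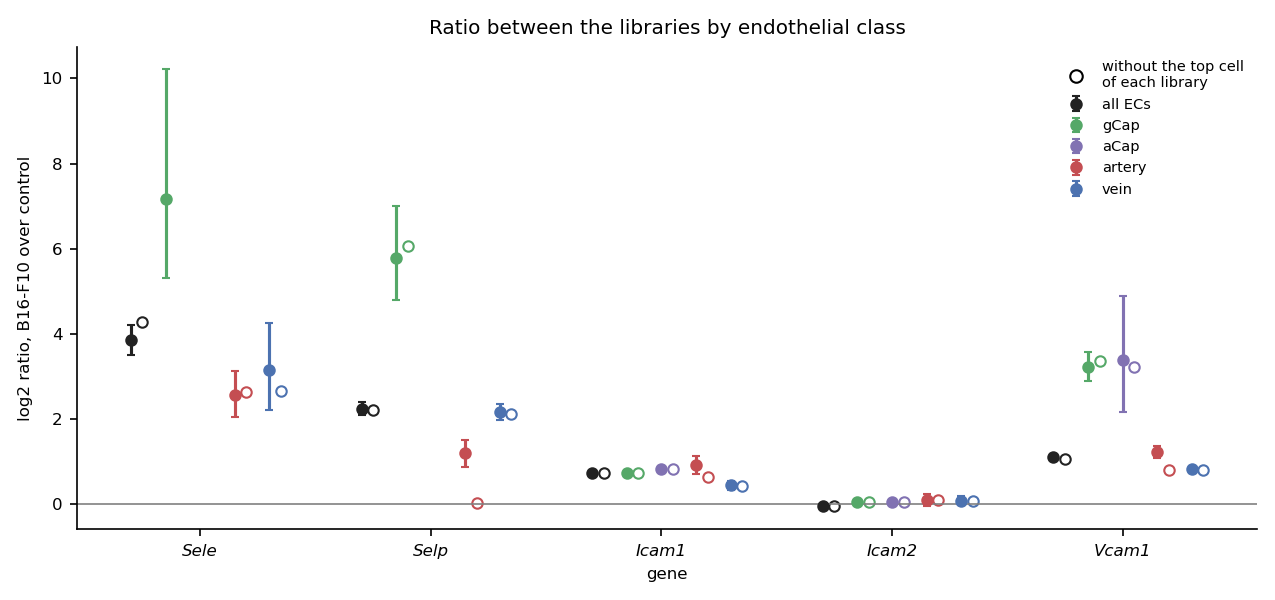
Log2 ratio of B16-F10 over control (y axis) for each gene (x axis) in all ECs and in 4 vessel classes, where filled points carry exact 95% counting intervals and open points leave out the cell of each library with the most UMIs of the gene. Sele and Selp stand highest in gCap-like ECs, at 7.17 and 5.78, Icam2 lies near 0 in each class shown, and the artery-like point of Selp drops from 1.20 to 0.018 without its top cells.

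The selectins were examined first. In gCap-like ECs, the capillary cells that also act as progenitors in repair, Sele had 2 control UMIs, both in the same cell of 4618, and 311 UMIs in 68 of 4252 cells in B16-F10 lungs. The level was 0.0568 CPM (0.00688 to 0.205) against 8.17 (7.29 to 9.13), a log2 ratio of 7.17 (5.30 to 10.22). With no upper limit on genes per cell the Sele ratio was 3.74, and the 348 control barcodes of over 5000 genes held 16 Sele UMIs in all. Selp had 8 UMIs in 6 control cells and 474 UMIs in 153 B16-F10 cells, a level of 0.227 CPM (0.0981 to 0.448) against 12.5 (11.4 to 13.6) and a log2 ratio of 5.78 (4.79 to 7.00). Counts this small in control leave the size of both ratios open to a wide range. Among 13160 genes measured in gCap-like ECs, Sele and Selp stood at ranks 2 and 5 from the highest ratio. No weight is put on these ranks, since the genes were picked on this contrast. The ranks also rest on the 2 and 8 control UMIs given above. In this class 3 of the 5 genes were at least 2-fold higher and none lower, where 3.05% of genes were higher and 2.62% lower.

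At equal depth, a Sele UMI was seen in 1 of 4582 control gCap-like cells (0.0218%, 0.000553 to 0.122) and in 36 of 4241 B16-F10 cells (0.849%, 0.595 to 1.17). Selp was seen in 0.109% (0.0354 to 0.254) and in 1.34% (1.02 to 1.74). The differences were 0.827 percentage points (0.571 to 1.15) for Sele and 1.23 (0.897 to 1.63) for Selp. At full depth, where B16-F10 cells were deeper, Sele was in 1 of 4618 and 68 of 4252 cells and Selp in 6 and 153. RNA that floats free in the droplets would put a Sele UMI in 0.0289% and a Selp UMI in 0.0722% of B16-F10 gCap-like cells at this depth, both below the shares seen. Melanoma-like cells, which should lack both genes, had them in 0 of 77 thinned cells, which allows a share of up to 3.90%. Their median depth before thinning was 8039.5 UMIs against 8577 in gCap-like cells of that library. The few other cells that should not be endothelial gave a less clear background. In B16-F10 lungs Selp was in 1 of 60 thinned lymphoid cells (1.67%, 0.0422 to 8.94), a share whose interval covers that of gCap-like cells, and in 0 of 19 neutrophils, while before thinning it was in 4 of 64 and 3 of 19. Sele was in 0 of 60 thinned lymphoid cells and 0 of 19 neutrophils there (3 of 64 and 0 of 19 before thinning), and in control it was in 1 of 3 thinned neutrophils and 0 of 16 lymphoid cells (2 of 3 and 2 of 16 before thinning).

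Control Selp lay mainly in vein-like and artery-like ECs, whose levels had overlapping intervals. The vein-like count was 278 UMIs with PBS and 1249 with B16-F10 cells, 87.2 CPM (77.2 to 98.0) against 393 (371 to 415), with a log2 ratio of 2.17 (1.98 to 2.36). At equal depth 10.2% (7.03 to 14.2) of control and 30.4% (25.1 to 36.1) of B16-F10 vein-like cells had a UMI, a difference of 20.2 percentage points (13.8 to 26.5). Without thinning the shares were 25.0% and 50.2%. The number of vein-like cells with 10 or more Selp UMIs was 7 in control and 37 in B16-F10 lungs. Selp thus differed in both how many venous cells carried it and how much each carried, with means of 3.66 and 8.80 UMIs per cell with a UMI. Vein-like Sele was far scarcer, with 10 UMIs in 5 cells and 89 UMIs in 9 cells, and its log2 ratio was 3.16 (2.21 to 4.27). Of those 89 UMIs, 51 came from 1 cell, and without the top cell of each library the ratio was 2.67 (1.42 to 4.20). It was 1.75 with no upper limit on genes per cell. In vein-like ECs 2 of the 5 genes were at least 2-fold higher and none lower, where 1.68% of 9353 genes were higher and 1.21% lower.

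Artery-like ECs gave a selectin signal that rested on very few cells. Sele had 36 UMIs in 6 control cells and 194 UMIs in 13 B16-F10 cells, 19.1 CPM (13.4 to 26.5) against 114 (98.1 to 131), and Selp had 128 and 266 UMIs, 68.0 CPM (56.7 to 80.8) against 156 (138 to 176). A single B16-F10 cell with 16072 UMIs and 4064 genes held 138 of the Sele UMIs (71.1%) and 159 of the Selp UMIs (59.8%). The same cell held 142 of 507 Icam1 UMIs (28.0%) and 470 of 1219 Vcam1 UMIs (38.6%). It carried 59 endothelial, 39 artery, 22 gCap and 10 vein marker UMIs, 1 melanoma marker UMI and 0 platelet marker UMIs. In control, 26 of the 36 Sele UMIs were likewise in 1 cell, which also had 39 Icam1 and 96 Vcam1 UMIs.

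Without the top cell of each library, an alternative chosen after seeing the data, the artery-like log2 ratio of Selp went from 1.20 (0.89 to 1.51) to 0.018 (-0.37 to 0.41). Vcam1 went from 1.23 (1.08 to 1.37) to 0.80 (0.63 to 0.97) and Icam1 from 0.91 (0.70 to 1.12) to 0.65 (0.42 to 0.88), while Sele was 2.57 (2.05 to 3.13) with and 2.63 (1.65 to 3.77) without. The share of artery-like cells with a Selp UMI, which no single cell can move far, was 10.5% (6.94 to 15.2) in control and 8.79% (5.11 to 13.9) in B16-F10 lungs, a difference of -1.76 percentage points (-7.39 to 4.24). No difference of Selp was detectable in artery-like cells by that measure. By summed UMIs 3 of the 5 genes were at least 2-fold higher in this class and none lower, where 1.55% of 8068 genes were higher and 1.44% lower.

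In the remaining vessel classes selectin transcripts were near or at 0. The aCap-like ECs, the large capillary cells specialised for gas exchange, had 1 and 4 Sele UMIs and 1 and 1 Selp UMIs in 1446 and 966 cells. LEC-like cells had no Sele UMI in 58 and 51 cells, where a count of 0 allows a share of up to 5.17% and 5.88%, and 1 and 0 Selp UMIs. The Fabp4 and Rbp7 cluster had no Sele UMI and 5 and 1 Selp UMIs.

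**Figure D2:**
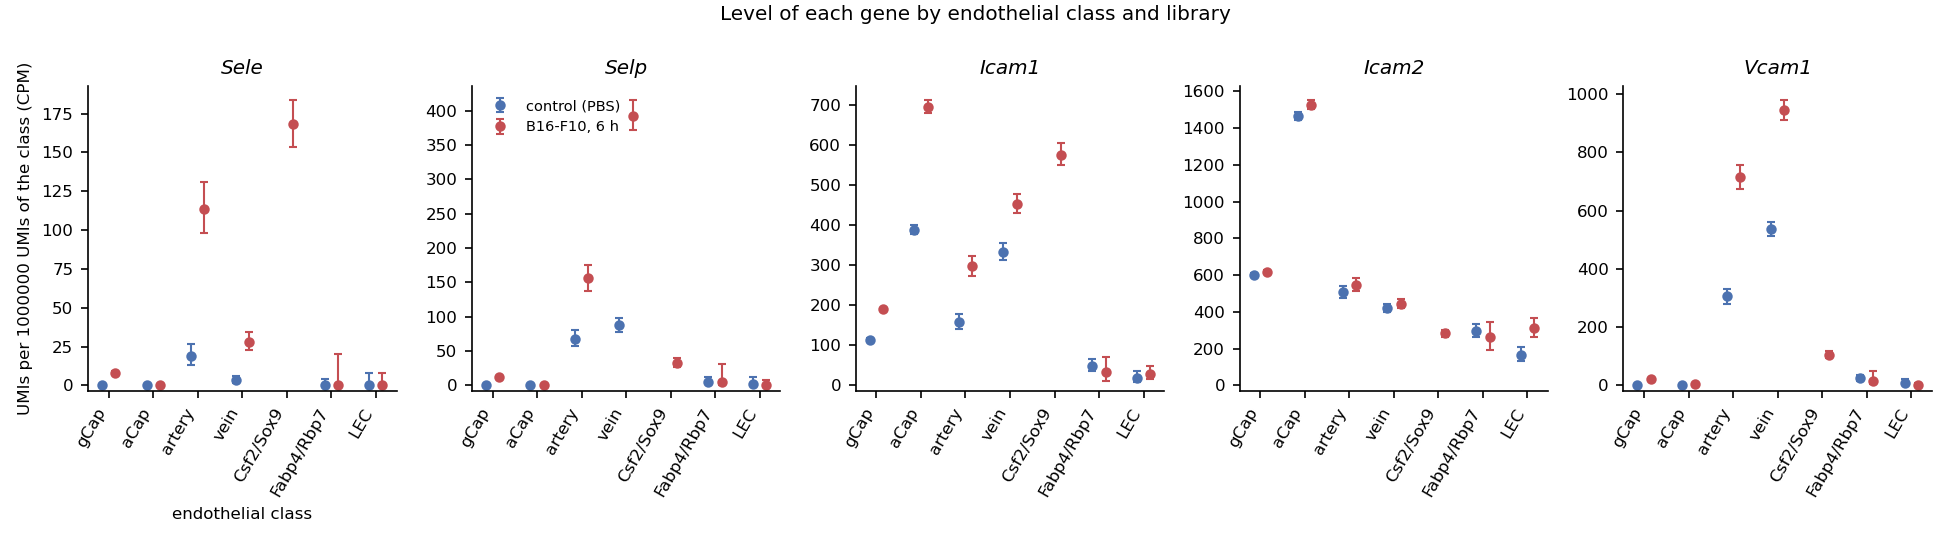
Level of each gene in CPM of the class (y axis, linear, from 0) in 7 endothelial classes (x axis) in the control (blue) and B16-F10 (red) libraries, with exact 95% Poisson intervals as bars. Vein-like ECs stand highest for Selp and Vcam1, at 393 and 944 CPM in B16-F10 lungs, aCap-like ECs stand highest for Icam2 and for Icam1 of B16-F10 lungs, and the 8 control cells of the Csf2 and Sox9 cluster are not drawn.

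The cluster led by Csf2 and Sox9 held the largest single portion of Sele, with 501 of the 1099 UMIs of B16-F10 ECs (45.6%) in 306 of 6072 cells, a level of 168 CPM (154 to 184). At equal depth 33 of its 301 cells had a Sele UMI (10.96%, 7.67 to 15.1) and 11 had a Selp UMI (3.65%, 1.84 to 6.44). Sele was therefore the more widely seen selectin in these cells, in contrast to veins, where it was Selp. Of its cells, 15 had 10 or more Sele UMIs, and the highest had 79. Only 8 control cells fell in it, of which 2 had 24 Sele UMIs between them, and no direction is read from so few cells. Selp and Vcam1 had no UMI in those 8 cells. Its summed platelet markers were 98.4 CPM in B16-F10 lungs, against 24.1 in gCap-like ECs, and cells of the cluster with a Sele UMI had a mean of 0.226 platelet marker UMIs per 2000 UMIs against 0.243 in those without. Among 6651 genes with at least 50 UMIs over both libraries of this cluster, 1 of the 5 genes was at least 2-fold higher and 1 at least 2-fold lower, where 15.5% and 15.7% of genes were.

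Vcam1 marked the larger vessels. Its level was 536 CPM (511 to 562) in control and 944 (911 to 979) in B16-F10 vein-like ECs, a log2 ratio of 0.82 (0.73 to 0.90), and 305 (280 to 331) and 713 (674 to 755) in artery-like ECs. The veins stood above the arteries in both libraries, with intervals that did not overlap. At equal depth 38.8% (33.3 to 44.5) of control and 57.95% (52.0 to 63.8) of B16-F10 vein-like cells had a UMI, a difference of 19.1 percentage points (11.1 to 26.9). In artery-like cells the shares were 24.5% and 28.0%, a difference of 3.55 (-4.85 to 12.1), which was within counting error. A larger share of venous cells thus had Vcam1 in B16-F10 lungs, and no such difference was detectable in arteries.

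In capillaries Vcam1 was rare in control. It had 78 UMIs in gCap-like ECs of control and 791 in those of B16-F10 lungs, 2.21 CPM (1.75 to 2.76) against 20.8 (19.4 to 22.3), with a log2 ratio of 3.23 (2.89 to 3.59). The shares of cells at equal depth were 0.393% (0.233 to 0.620) and 2.45% (2.01 to 2.96), where free RNA would give 0.0765% and 0.262%. The aCap-like ECs had 6 and 52 UMIs, a log2 ratio of 3.39 (2.17 to 4.90), and 5 of 961 thinned B16-F10 cells had a UMI against 0 of 1428 control cells. Of these 52 UMIs, 13 were in 1 cell. The aCap-like control level was 0.458 CPM (0.168 to 0.997), where free RNA as estimated in gCap-like ECs would give 0.383. In B16-F10 lungs the level was 4.79 CPM (3.57 to 6.28), where it would give 1.31. In aCap-like ECs 1 of the 3 genes measured was at least 2-fold higher and none lower, where 2.16% of 11103 genes were higher and 2.07% lower. LEC-like cells had 4 and 0 Vcam1 UMIs.

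**Figure D3:**
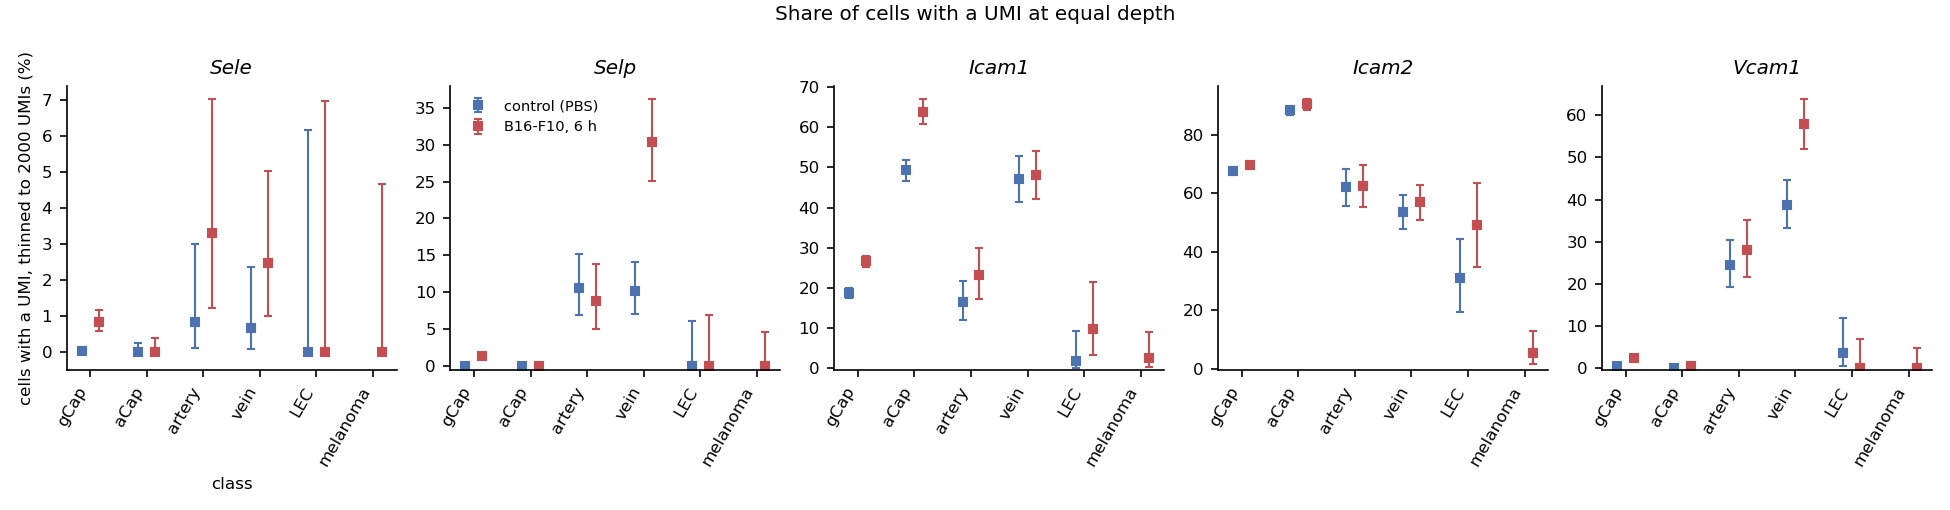
Share of cells with a UMI in percent (y axis, linear) after thinning each cell to 2000 UMIs, by class (x axis), for the control (blue) and B16-F10 (red) libraries with exact 95% binomial intervals. Selp and Vcam1 differ between libraries in vein-like cells, at 10.2% and 30.4% and at 38.8% and 57.95%, whereas the artery-like intervals overlap, and melanoma-like cells have no UMI of Sele, Selp or Vcam1.

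Icam1 was found in every blood endothelial class and was higher in B16-F10 lungs in each of the 4 vessel classes named from blood vessel markers. In gCap-like ECs it stood at 114 CPM (110.1 to 117) and 189 (185 to 194), a log2 ratio of 0.74 (0.68 to 0.79), and in aCap-like ECs at 389 (378 to 399) and 695 (680 to 711), a log2 ratio of 0.84 (0.79 to 0.89). The vein-like level went from 333 (314 to 354) to 453 (430 to 477), with a ratio of 0.44 (0.33 to 0.56), and the artery-like level from 158 (140 to 177) to 297 (271 to 324). The order of classes was aCap-like, vein-like, artery-like and gCap-like in both libraries, and no neighbouring intervals overlapped. In capillaries the share of cells with Icam1 differed as well. At equal depth the share with a UMI was 18.7% and 26.6% in gCap-like ECs, a difference of 7.89 percentage points (6.15 to 9.64), and 49.2% and 63.9% in aCap-like ECs, a difference of 14.7 (10.6 to 18.6). In vein-like cells the shares were 47.0% and 48.1%, and the difference of 1.02 (-7.02 to 9.04) was within counting error, although it was 9.26 when cells were thinned to 4000 UMIs. Free RNA would give an Icam1 UMI in 0.639% of control and 1.36% of B16-F10 gCap-like cells, and melanoma-like cells had it in 2 of 77 (2.60%, 0.316 to 9.07).

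Of the aCap-like cells, 401 of 1446 in control and 552 of 966 in B16-F10 lungs had 5 or more Icam1 UMIs before thinning. The 3 aCap-like clusters held different parts of the 2 libraries, with cluster 6 at 173 and 781 cells, cluster 7 at 644 and 103, and cluster 8 at 629 and 82. Within each of them Icam1 was nonetheless higher in B16-F10 lungs, from 521 (489 to 553) to 693 CPM (677 to 711) in cluster 6, from 364 (350.4 to 379) to 760 (709 to 813) in cluster 7 and from 366 (348 to 385) to 584 (519 to 656) in cluster 8. LEC-like cells carried little Icam1, with 9 and 14 UMIs. In the Fabp4 and Rbp7 cluster it had 48 and 6 UMIs, and none of the 2 genes measured there, Icam1 and Icam2, was at least 2-fold higher or lower, where 3.84% of 4398 genes were higher and 4.62% lower. In the Csf2 and Sox9 cluster it stood at 576 CPM (549 to 603) in B16-F10 lungs and was seen in 51.2% (45.4 to 56.9) of thinned cells.

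Icam2 differed least between the libraries. Its level was 601 CPM (593 to 609) and 619 (611 to 627) in gCap-like ECs, 1465 (1445 to 1486) and 1529 (1505 to 1552) in aCap-like, 509 (477 to 542) and 546 (512 to 582) in artery-like and 419 (397 to 443) and 444 (421 to 468) in vein-like ECs. The log2 ratios of these 4 classes ran from 0.04 to 0.10. Those of artery-like (-0.03 to 0.23) and vein-like ECs (-0.03 to 0.19) held 0 in their intervals. Over all ECs the small negative ratio of -0.05 became 0.013 once the median gene was set to 0, so its sign depends on the scaling. At equal depth 67.8% and 69.6% of gCap-like and 88.4% and 90.4% of aCap-like cells had a UMI, and the difference for gCap-like cells was 1.84 percentage points (-0.0965 to 3.77).

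LEC-like cells departed from this, with 80 UMIs in 58 control cells and 150 in 51 B16-F10 cells. The level was 166 CPM (132 to 207) against 312 (264 to 366), a log2 ratio of 0.91 (0.50 to 1.32), and the shares at equal depth were 31.03% and 49.0%, a difference of 18.0 (-0.353 to 34.9). The count and the share therefore did not give the same call. Icam2, the 1 gene of the 5 measured there, was not at least 2-fold higher or lower, where 1.53% of 3977 genes were higher and 2.01% lower. In the Csf2 and Sox9 cluster Icam2 was at 283 CPM (264 to 303) in B16-F10 lungs, below the 619 of gCap-like ECs, and 38.2% (32.7 to 44.0) of thinned cells had a UMI.

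Within gCap-like ECs of B16-F10 lungs, Sele, Selp and Vcam1 were concentrated in 1 of 5 clusters. Cluster 4, led by Lalba, Tmem252 and Adamts9, held 80 control and 1038 B16-F10 cells, and the 5 genes described here had been left out when cells were clustered. In B16-F10 lungs it held 303 of 311 gCap-like Sele UMIs (97.4%), 432 of 474 Selp UMIs (91.1%) and 583 of 791 Vcam1 UMIs (73.7%). Its levels were 30.9 CPM of Sele (27.5 to 34.6), 44.1 of Selp (40.0 to 48.4) and 59.5 of Vcam1 (54.7 to 64.5). The other 4 clusters had 1 to 4 Sele UMIs, 1 to 29 Selp UMIs and 30 to 85 Vcam1 UMIs each. Even in cluster 4 most cells had no selectin UMI: 63 of 1038 had Sele (6.07%, 4.70 to 7.70), 127 had Selp (12.2%, 10.3 to 14.4) and 174 had Vcam1 (16.8%, 14.5 to 19.2) before thinning. The 80 control cells of the cluster had no UMI of either selectin, 15 Vcam1 UMIs and an Icam1 level of 329 CPM (285 to 377).

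**Figure D4:**
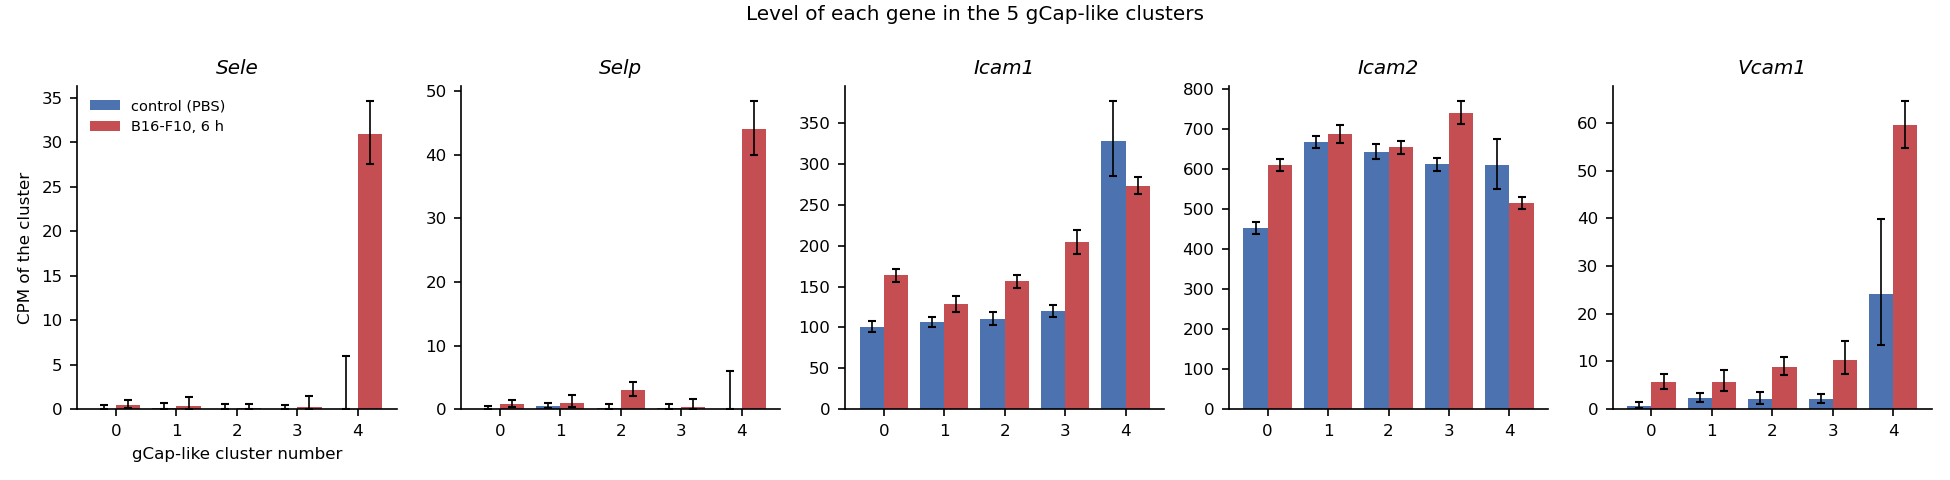
Level of each gene in CPM of the cluster (y axis, linear, from 0) in the 5 gCap-like clusters (x axis) of the control (blue) and B16-F10 (red) libraries, with exact 95% Poisson intervals. Sele, Selp and Vcam1 of B16-F10 lungs stand out in cluster 4, at 30.9, 44.1 and 59.5 CPM. Icam1 is higher in B16-F10 lungs in clusters 0 to 3 but lower in cluster 4, at 329 CPM in control and 274 in B16-F10 lungs. Icam2 of B16-F10 lungs is lowest in cluster 4, at 515 CPM.

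Of the gCap-like Icam1 UMIs, cluster 4 held 37.3%. In gCap-like clusters 0 to 3 it ranged from 101 to 120.2 CPM in control and from 128 to 205 in B16-F10 lungs, and in cluster 4 of B16-F10 lungs it was 274 (264 to 284), below the 329 of the 80 control cells there. Icam2 went the other way in cluster 4, at 515 CPM (500.5 to 529) against 609 to 740 in the other clusters of that library. These are descriptions of clusters and were not tested.

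The study described a cluster of reactive capillary cells, rCap, and listed 50 marker genes of it, found partly on these libraries and therefore not independent of them. The summed UMIs of 44 of them, per 2000 UMIs of a cell, were set beside the 5 genes in gCap-like ECs. In B16-F10 lungs no Sele or Selp UMI was seen at this depth in the 313 cells with 11 to 20 rCap UMIs or in the 1132 cells with 21 to 30, where the intervals reach 1.17% and 0.325%. From 31 to 40 rCap UMIs the shares were 0.381% for Sele and 0.191% for Selp, and at 51 or more they were 2.60% (1.76 to 3.68) and 4.33% (3.23 to 5.66). Vcam1 ran from 0.639% at 11 to 20 rCap UMIs to 6.66% (5.29 to 8.25) at 51 or more. Cells with a Sele UMI had a median of 61.5 rCap UMIs against 36 in those without, cells with Selp 67 against 36, and cells with Vcam1 65 against 36. The interferon list of the study did not separate them alike, with medians of 5.5 against 7 for Sele and 9 against 7 for Selp.

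Icam1 followed the rCap sum more gently, from 21.4% (17.0 to 26.4) at 11 to 20 rCap UMIs to 33.1% (30.4 to 35.9) at 51 or more. In control cells it also went from 14.9% (10.4 to 20.5) at 0 to 10 rCap UMIs to 24.1% (19.8 to 29.0) at 31 to 40, and was 20.4% (10.6 to 33.5) in the 54 cells at 41 to 50. Side by side, the control and B16-F10 shares were 16.4% and 21.4% at 11 to 20 rCap UMIs, 20.7% and 21.8% at 21 to 30, 24.1% and 24.6% at 31 to 40, and 20.4% and 29.4% at 41 to 50, and the intervals overlapped in each of these bins. Overlap of separate intervals does not show equal shares, and no interval of the difference was taken here. Icam2 showed no such climb in B16-F10 lungs, where it was 69.0% at 11 to 20 and 65.4% (62.6 to 68.1) at 51 or more. Only 25 control cells had 51 or more rCap UMIs, of which 9 had Icam1, 2 had Vcam1 and none had a selectin UMI. For each selectin the interval of that 0 reaches 13.7%, above the B16-F10 shares of 2.60% for Sele and 4.33% for Selp.

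**Figure D5:**
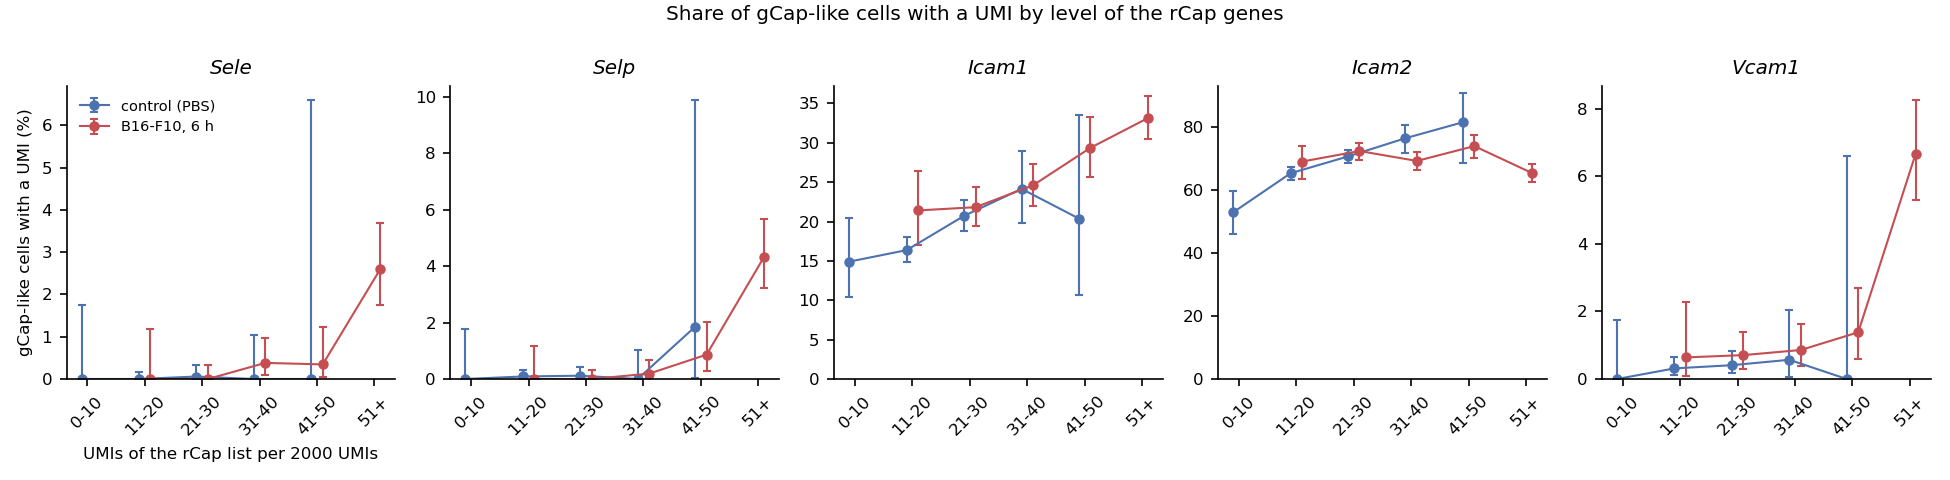
Share of gCap-like cells with a UMI of each gene in percent (y axis, linear, from 0) by the UMIs of the 44-gene rCap list per 2000 UMIs of the cell (x axis), for control (blue) and B16-F10 (red), with exact 95% binomial intervals and only for groups of at least 50 cells. Sele and Selp of B16-F10 lungs stay at or near 0 below 41 rCap UMIs and reach 2.60% and 4.33% at 51 or more, while Icam1 climbs from 21.4% to 33.1%.

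Some cells carried several of the genes. Before thinning, 134 control ECs and 465 B16-F10 ECs had either selectin, and 8 and 50 had both. Of these 50 cells, 34 also had Vcam1. The balance between selectins differed by class in B16-F10 lungs, with 49 gCap-like cells having Sele alone, 134 Selp alone and 19 both, while among vein-like cells 133 had Selp alone, 9 both and 0 Sele alone. The Csf2 and Sox9 cluster had the reverse, with 50 cells having Sele alone, 19 Selp alone and 13 both.

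At equal depth, 7 of 36 gCap-like cells with Sele had Selp (19.4%, 8.19 to 36.0), against 1.19% (0.884 to 1.56) of those without Sele. Vcam1 was found in 22.2% (10.1 to 39.2) of cells with Sele against 2.28%, and in 14.0% (6.26 to 25.8) of cells with Selp against 2.29%. Icam1 was found in 52.6% (39.0 to 66.0) of cells with Selp against 26.2% (24.9 to 27.6), and in 41.7% (25.5 to 59.2) of cells with Sele against 26.4%. Icam2 was the exception among the 5 genes, at 45.6% (32.4 to 59.3) of cells with Selp against 69.9% (68.5 to 71.3) of those without. Cells without a selectin UMI include the other gCap-like clusters, whereas most selectin UMIs lay in cluster 4. At equal depth cluster 4 of B16-F10 lungs had Selp in 4.82%, Vcam1 in 6.94%, Icam1 in 34.1% and Icam2 in 61.7% of cells. The Icam1 interval of cells with Sele covers that of cluster 4, so no excess over the cluster is read from it. The same holds for Vcam1 in cells with Selp, where cluster 4 had an interval of 5.47 to 8.66. The Icam2 interval of cells with Selp overlaps the 58.6 to 64.6 of cluster 4, and no difference from the cluster is read from it. In vein-like cells of B16-F10 lungs, Vcam1 was in 72.1% (61.4 to 81.2) of cells with Selp and in 51.8% (44.6 to 58.9) of those without, and in the Csf2 and Sox9 cluster it was in 36.4% (20.4 to 54.9) of cells with Sele and in 9.70% (6.44 to 13.9) of those without. Cells of a library are not replicates, and these shares were not tested.

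Within artery-like ECs, cells with Selp or Vcam1 carried more artery markers. In control artery-like cells those with a Selp UMI had a mean of 21.5 artery marker UMIs per 2000 UMIs against 9.24 in those without, and 1.20 gCap marker UMIs against 8.29. In B16-F10 lungs the means were 15.5 against 7.204 and 3.43 against 8.74. Vcam1 split the control cells likewise, with 15.8 against 8.28 artery marker UMIs and 3.49 against 9.54 gCap marker UMIs. The artery-like class as a whole had 5489 CPM of artery markers with PBS and 3966 with B16-F10 cells, and 3524 and 3967 CPM of gCap markers. Whether this shift in makeup bears on the arterial levels of Selp and Vcam1 was not tested.

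Markers of other cells were read beside these results. In gCap-like ECs the summed melanoma markers were 26.3 CPM in control and 50.8 in B16-F10 lungs, macrophage and monocyte markers 17.2 and 31.5, neutrophil markers 2.70 and 7.88, mural markers 22.2 and 36.1, platelet markers 21.1 and 24.1 and red cell markers 933 and 1414. Selp is also a platelet gene, and in artery-like cells the platelet markers went from 5.84 to 31.02 CPM. Its part in the arterial Selp level was not tested. In vein-like cells the platelet markers were 25.4 and 33.6 CPM, and red cell markers were 510.4 and 3526. Vein-like cells of B16-F10 lungs with a Selp UMI had a mean of 0.0915 platelet marker UMIs per 2000 UMIs against 0.0213 in those without. Control vein-like cells stood the other way, at 0.0132 with a Selp UMI and 0.0746 without. Artery-like cells with a Selp UMI had a mean of 0 in both libraries. Those without had 0.0153 in control and 0.0658 in B16-F10 lungs.

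When only cells without any UMI of the melanoma, macrophage and monocyte, neutrophil, mural or platelet markers were kept, which left 61.6% of control and 36.7% of B16-F10 gCap-like cells, Sele had 0 and 192 UMIs and stood at 0 and 14.9 CPM, and Selp had 2 and 159 UMIs. In vein-like cells so restricted, 49.7% and 30.4% of the class, Selp stood at 127 and 330.3 CPM. In artery-like cells, 75.2% and 44.6% of the class, Sele stood at 25.4 and 28.9 CPM and Selp at 70.5 and 77.2, and the single B16-F10 cell described above, with its 1 melanoma marker UMI, was among those left out, whereas 35 of the 36 control Sele UMIs stayed in. The log2 ratio of Selp in vein-like cells was 1.38 in this subset against 2.17 in the whole class. The part that other cells had in these results was not tested.

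Genes that work beside the 5 were read from a list of 71, of which 61 had at least 50 UMIs in all ECs. Of these, 35 were higher beyond their counting interval, 17 lower and 9 within it, where 29.5% of 14320 genes were higher and 38.7% lower beyond theirs, and the median log2 ratio was 0.15 against -0.06 over all 14320 genes. At least 2-fold higher were 5 of the 61, and none at least 2-fold lower, where 3.37% and 3.52% of all genes were. In gCap-like ECs 34 of 59 were higher and 16 lower, where 28.7% and 34.7% of genes were, in aCap-like 26 and 11 of 56, where 28% and 27.4% were, and in artery-like 17 and 6 of 49, where 16.1% and 14.4% were. Values over all ECs pool classes whose shares differed between the libraries, with aCap-like cells at 21.1% of control and 15.9% of B16-F10 ECs.

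Selectin ligand scaffolds and the enzymes that build their sugars were 7 measured of 15, with a median of -0.14 over all ECs. Of these 7, 2 were higher and 5 lower, where 29.5% and 38.7% of all genes were beyond their intervals. In gCap-like ECs the balance was the other way, with 3 higher and 2 lower of 6 and a median of 0.10. Of all genes there, 28.7% were higher and 34.7% lower beyond their intervals. Gcnt1, a core 2 branching enzyme, had a log2 ratio of -0.73, St3gal6, a sialyltransferase, -0.36, and Chst2, a sulfotransferase, -0.21. Within classes Chst2 stood otherwise, at 0.63 (0.35 to 0.91) in gCap-like and -0.06 (-0.16 to 0.04) in aCap-like ECs. Gcnt1 differed by class, at 0.95 (0.19 to 1.73) among aCap-like, -0.74 among artery-like and -1.24 among vein-like cells. The sialomucins Podxl (0.29) and Cd34 (0.26) were the 2 that were higher.

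Other adhesion and passage molecules were 20 measured of 22, with a median of 0.22 over all ECs. Of these 20, 14 were higher and 4 lower, where 29.5% and 38.7% of all genes were beyond their intervals. Vcan, a matrix proteoglycan, stood at 1.53 on 34 and 103 UMIs, Pvr, a nectin-like ligand, at 1.41, Mcam (CD146), which is also in the rCap list, at 1.06, and Nectin2 at 0.65. Vcan was also a leading gene of the macrophage and monocyte cluster. Summed markers of those cells in all ECs were 19.8 CPM in control and 36.3 in B16-F10 lungs. Their part in the Vcan ratio was not tested. Cd47, a signal that restrains phagocytes, was lower at -0.43.

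Anchors and clustering partners of ICAM-1 and VCAM-1 on the cytoskeleton, with their sheddases, were 19 measured of 19, with a median of 0.19. Over all ECs 13 were higher and 4 lower, where 29.5% and 38.7% of all genes were beyond their intervals. Sdc4, a heparan sulfate proteoglycan, stood at 1.01, the actin crosslinkers Actn1 and Flna at 0.71 and 0.63, and Msn (moesin), which binds the tails of both proteins, at 0.64.

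Weibel-Palade body cargo and release factors were 15 measured of 15, with a median of 0.10. Over all ECs 6 were higher and 4 lower, where 29.5% and 38.7% of all genes were beyond their intervals. Cd63, a tetraspanin of the body's membrane that holds P-selectin at the surface, stood at 1.43, and Vwf, its main cargo, at 0.29. Angpt2 (-0.83) and Edn1 (-0.68), also stored there, were lower, and Unc13d (0.36, -0.15 to 0.87) was within its interval. In aCap-like ECs 5 of 12 were higher and none lower, and in artery-like ECs 7 of 11 were higher and none lower. In gCap-like ECs 6 of 15 were higher and 5 lower, and in vein-like ECs 3 of 12 were higher and 3 lower. All-gene shares beyond the interval were 28% higher and 27.4% lower in aCap-like ECs. They were 16.1% and 14.4% in artery-like and 28.7% and 34.7% in gCap-like ECs. The share for vein-like ECs is not given here, so nothing is read from their count.

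Likeness of pattern was read over 10 points, the gCap-like, aCap-like, artery-like, vein-like and LEC-like classes of both libraries, as Pearson's r of log2(CPM + 1) among 14320 genes. Selp was most like Vcam1 (r = 0.98), then Tnfrsf1b and Art4 (0.95 and 0.94), and Vcam1 was most like Selp, then Art4 and Myof (0.96 and 0.96). Icam1 was most like Tpm1, Cyp1a1 and Tmem176a (0.98, 0.98 and 0.97), and Icam2 most like Xpnpep1, Map7d1 and Tmem222 (all 0.98). Sele was most like Zc3hc1, Cep85 and Ak1 (0.96, 0.95 and 0.95). The points share libraries and depth and are not independent, so no p-value is given.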

How the data were processed

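Single-cell RNA-seq (10x Genomics 3′) was measured in 1 library per group. The authors deposited raw counts of UMIs per gene and barcode, aligned to mm10 with Cell Ranger 7.2.0 and handled with Seurat 4.4.0 per the submitters' processing notes. Whether intronic reads were counted is not given in the sources used here. Barcodes were kept at 1000 to 5000 genes with a mitochondrial share below 20%, and doublets were called at 0.8% per 1000 cells. Cells were clustered with scanpy 1.11.5 and leidenalg 0.10.2 (30 components, 20 neighbours, resolution 0.8) without the 5 genes and the lists described, and clusters were named from marker lists with limits set after a first clustering was seen. UMIs were summed per class and library in numpy 2.4.6, with 95% intervals from scipy 1.17.1. These were exact for levels (Poisson), ratios (conditional binomial) and shares (Clopper-Pearson), and Newcombe intervals for differences of shares. Intervals and floors of 3 counts cover counting error only. Genes with at least 50 UMIs over both libraries entered ratios. Free RNA was estimated from barcodes with 1 to 100 UMIs. All 5 genes, up to 5 genes of the largest absolute ratio in each context list, and the 3 most alike genes per member are named, except for an item not reported here. The 5 genes and all lists were chosen with earlier results of these data known. Scripts were tested on simulated data.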

Additional observations from a re-analysis of the deposited data

Results flagged for a closer look

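Barcodes outside the limits on cells also held these transcripts, and the values below were higher in the B16-F10 than in the control library unless said otherwise. Among barcodes with 1 to 100 UMIs, which are mostly empty droplets, Sele stood at 6.99 CPM against 0.882 in control, Selp at 17.5 against 5.47, Icam1 at 332 against 219 and Vcam1 at 63.5 against 26.1. Barcodes with at least 300 and under 1000 genes, 1750 in control and 2590 in B16-F10 lungs, had 0 and 19 Sele UMIs, the latter being 6.91 CPM, and Icam1 at 76.7 and 125 CPM. Barcodes with over 5000 genes, 348 and 645, had Sele at 1.90 CPM in control and 10.4 in B16-F10 lungs, Selp at 23.95 and 37.3, and Icam1 at 190.3 and 297. In those barcodes Vcam1 was not higher, at 99.95 CPM in control and 78.2 in B16-F10 lungs. Icam2 was lower in B16-F10 lungs in all 3 kinds of barcode, at 932 and 821 CPM with 1 to 100 UMIs, 285 and 275 (overlapping intervals) with at least 300 and under 1000 genes, and 614 and 522 with over 5000 genes.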

How the results depend on the processing

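No paired analysis was possible because there was 1 library per group. Of 405 values under alternatives of 51 results, 326 stayed within the counting interval of the value reported, and 12 results had no alternative outside it. The causes of the shifts below were not tested. With no upper limit on genes per cell, the log2 ratios of Sele were 3.50 in all ECs, 3.74 in gCap-like and 1.75 in vein-like ECs, those of Selp 1.97 in all, 1.72 in artery-like and 1.88 in vein-like, those of Vcam1 0.84 in all, 2.83 in gCap-like, 0.58 in vein-like and 1.48 in artery-like, and that of Icam1 0.78 in all, while Icam2 of aCap-like ECs changed sign to -0.021. With every cell thinned to 2000 UMIs, Sele was 3.43 in all and 1.76 in artery-like ECs, Selp 4.39 in gCap-like, Icam1 0.64 in all, 0.64 in gCap-like, 0.73 in aCap-like, 0.31 in vein-like and 2.77 in LEC-like, Icam2 0.11 in aCap-like and 0.38 in LEC-like, and Vcam1 0.88 in artery-like. Without cells that had markers of other cell types, Sele was 3.17 in all, 0.19 in artery-like and 1.38 in vein-like, Selp 1.53 in all, 0.13 in artery-like and 1.38 in vein-like, Icam1 0.80 in gCap-like, 0.72 in aCap-like and 0.38 in artery-like, and Vcam1 0.86 in all, 0.49 in artery-like and 0.68 in vein-like. In that setting Icam2 of LEC-like ECs changed sign to -0.19, on 5 control and 3 B16-F10 cells, and the share differences in percentage points were 1.68 for Sele in all, 1.35 for Sele and 2.61 for Vcam1 in gCap-like, and 33.3 for Icam1 and -26.7 for Icam2 in LEC-like ECs. Without the top cell of each library, chosen after seeing the data, Sele was 4.29 in all ECs and, in artery-like ECs, Selp was 0.018, Icam1 0.65 and Vcam1 0.80. With the median gene set to 0, Icam1 was 0.80 and Icam2 changed sign to 0.013 in all ECs, Icam2 was 0.083 in gCap-like ECs, and the median of the context list was 0.21. With doublets kept, Selp was 1.53 and Vcam1 1.47 in artery-like and Vcam1 0.68 in vein-like ECs. With at least 500 genes per cell, Icam1 was 0.28 and Vcam1 0.54 in vein-like and Vcam1 1.02 in all ECs. With the lists kept in clustering, Icam2 was 0.24 in artery-like ECs, and with free RNA subtracted Vcam1 was 5.53 in aCap-like ECs. The control side of that Vcam1 value was 6 UMIs at 0.458 CPM, with free RNA estimated at 0.383 CPM, so little was left after subtraction. Share differences at 4000 UMIs were 1.71 for Sele, 2.65 for Selp, 10.7 for Icam1 and 3.97 for Vcam1 in all ECs, 1.25, 2.05, 11.9 and 3.29 for the same genes in gCap-like, 8.69 for Icam1 and 1.22 for Vcam1 in aCap-like, and 9.26 for Icam1 in vein-like ECs. Without thinning they were 2.35 for Sele, 4.06 for Selp, 15.8 for Icam1, 2.82 for Icam2 and 6.43 for Vcam1 in all, 1.58 for Sele, 3.47 for Selp, 19.1 for Icam1 and 5.83 for Vcam1 in gCap-like, and 9.52 for Icam1 and 2.07 for Vcam1 in aCap-like ECs. The gCap-like ratios of Sele and Selp rest on 2 and 8 control UMIs.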

Other observations

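Clusters that carried endothelial markers together with those of another cell type, which the comparisons leave out, showed the same genes. Sele UMIs numbered 0 with PBS and 68 with B16-F10 cells there, at least 16.2-fold higher against a floor of 3 counts over the group, and Selp 11 and 82 UMIs, or 1.95 and 10.4 CPM. Icam1 stood at 91.3 and 163 CPM and Vcam1 at 7.61 and 20.8. A cluster led by the platelet gene Mpig6b, of 173 and 131 cells, had 4 and 37 Selp UMIs, or 2.63 and 29.2 CPM. A cluster led by the epithelial genes Scgb1a1, Sftpa1 and Sftpc, of 80 and 141 cells, had 10 and 80 Vcam1 UMIs, or 12.6 and 58.9 CPM.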
